A study of Mus musculus with 2 samples.

Results

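Genes of the dense core vesicle pathway were read in mouse neural stem cells, 10 out of 15953 genes listed in the deposited expression table. They comprised 5 members of the granin family and its relatives (Vgf, Scg2, Scg3, Chga and Chgb), 3 enzymes that process prohormones (Pcsk1, Pcsk2 and Cpe), the vesicle protein gene Syt4 and the peptidase gene Ecel1. The genes were chosen by name, with their read counts in these same 2 libraries already known, so the differences given for them are descriptions and carry no test. All 10 were listed, and 9 passed a filter of 1 CPM (1 read per 1000000 reads counted) in at least 1 library. Pcsk1, at 2 reads against 0, did not.

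Total RNA came from neural stem cells grown in suspension, as 1 library each for the labels wild type and Hikeshi conditional knockout (cKO). Hikeshi is a carrier of HSP70 chaperones into the nucleus. The strain, sex and age of the mice, the Cre line, the exons removed and the number of animals or cultures behind a library were not stated in these sources. The libraries held 18912683 (cKO) and 18839079 (wild type) reads. Hikeshi itself had 640 reads (cKO-labelled) and 718 (wild-type-labelled), or 33.8 against 38.1 CPM, and since reads over exons outside a deleted part check nothing, the genotype rests on the labels. The Y chromosome genes Eif2s3y, Ddx3y, Kdm5d and Uty together had 2931 reads (cKO-labelled) and 1 (wild-type-labelled), so a Y-linked difference cannot be told apart from the genotype in any value below. With 1 library per group there was no replicate error, and each 95% interval below covers the counting of reads only.

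Dense core vesicles are the storage granules of neurons and endocrine cells, which hold peptides and release them on demand. Granins are acidic secretory proteins that condense in the trans-Golgi network and help these granules to form, and several are themselves cut into bioactive peptides. Inside the granule the prohormone convertases encoded by Pcsk1 and Pcsk2 cut at pairs of basic residues, and carboxypeptidase E, from Cpe, trims the basic residues left behind. In the brain the pathway is best known from neurons, though glial and progenitor cells also make some of its parts.

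Promoter windows of 300 bases, 250 before and 50 after the RefSeq start site (GRCm38.p6), were matched for 7 of the 10 genes, and Vgf, Cpe and Syt4 had no entry. The windows were searched for the cyclic AMP response element (CRE), TGACGTCA, a palindrome to which CREB family factors bind, because several granin genes are textbook CREB targets. The CRE was found in 3 of the 7 windows, those of Scg2, Chgb and Pcsk1, starting 68, 72 and 78 bases before the start site. Among all 32851 windows 1.79% held it. The window of Chga held the variant TGACGTAA instead, starting 44 bases before the start site, which 0.499% of all windows held on either strand. The promoters of Scg2, Chgb and Chga are printed because they carry the CRE (Scg2 and Chgb) or its variant (Chga). They were also chosen because the genes differed in direction between the libraries, Scg2 by less than 1.5-fold, as shown further on. Each printed stretch is the 100 bases before the start site, 5′ to 3′ on the gene's own strand, with the CRE or its variant in capitals. They lie at chr1:79440027-79440126 on the minus strand (Scg2), chr2:132781542-132781641 on the plus strand (Chgb) and chr12:102554841-102554940 on the plus strand (Chga), and their sequences are credited to RefSeq.
Scg2: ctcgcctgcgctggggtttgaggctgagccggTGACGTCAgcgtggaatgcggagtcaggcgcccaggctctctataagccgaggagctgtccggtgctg
Chgb: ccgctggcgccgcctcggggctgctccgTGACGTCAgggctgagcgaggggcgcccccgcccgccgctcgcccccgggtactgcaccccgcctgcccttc
Chga: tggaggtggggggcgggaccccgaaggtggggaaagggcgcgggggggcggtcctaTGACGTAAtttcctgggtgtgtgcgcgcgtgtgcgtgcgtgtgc

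The surroundings of the CRE or its variant differed between these genes. The GC content of the printed stretches was 81% for Chgb, 70% for Chga and 66% for Scg2. GC boxes, searched as GGGCGG on both strands, were in the windows of Chga, Chgb, Pcsk1 and Pcsk2 and in 35.7% of all windows. TATAAA, also searched on both strands, was in the Chga window alone among the 7, 6 bases after the RefSeq start site, and in 13.6% of all windows. The 5-letter core TGACG, which every CRE and the variant contain, was in 6 of the 7 windows, all but that of Ecel1, against 20.8% of all windows. The sites of REST, the repressor that keeps neuronal genes silent outside neurons, were searched through the left part of its RE1 element, TTCAGCACC, and the right part, GGACAG, each on both strands. Scg2 was the member whose window held TTCAGCACC, on the opposite strand and reaching 2 bases past the start site, against 0.371% of all windows. There it was joined directly to GGACAG, which is not the standard RE1, where 2 bases lie between these parts. With that spacing the letters were in 4 of 32851 windows, and in 0 of the 7 member windows. A match describes letters in a window and shows neither binding nor its absence.

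**Figure D1:**
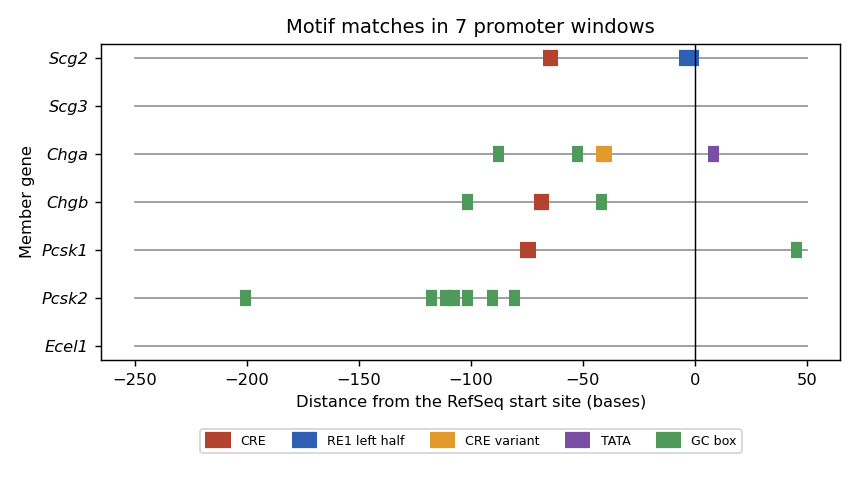
Positions of exact motif matches on either strand in the RefSeq promoter windows of 7 members, with distance from the start site in bases on the x axis and 1 line per gene. CRE matches lie 68 (Scg2), 72 (Chgb) and 78 (Pcsk1) bases before the start site and the CRE variant of Chga 44 bases before it, while Scg3 and Ecel1 hold none of the motifs drawn (CRE, its variant, the left part of RE1, TATAAA and the GC box).

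Measured as reads, the members differed between the libraries in both directions. Of the 9 genes kept, Vgf, Syt4 and Ecel1 had cKO levels at least 1.5 times those of wild type on the log2(CPM + 1) scale, and Scg3, Chga, Chgb and Pcsk2 were below wild type by the same margin. Scg2 and Cpe lay within 1.5-fold. Past the same margin lay 4.22% (higher) and 10.2% (lower) of all 12618 genes kept, and nothing is read from the contrast with the members' counts because the members were picked with these differences known. At 2-fold the members counted 3 higher and 3 lower, where 1.25% and 3.85% of all genes kept passed. The median log2 difference of the 9 members was -0.21 and that of all genes kept -0.02. Summed over the 10 genes, the libraries were nearly equal, at 20437 reads (cKO) and 19840 reads (wild type), or 1081 and 1053 CPM, and Cpe alone supplied 62.2% and 73.5% of those reads. Without Cpe the other 9 genes had 7735 and 5249 reads, a ratio of 1.47 (1.42 to 1.52). Of those reads Vgf alone supplied 3920 and 1379, so that ratio rests on Vgf and does not describe the remaining genes.

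**Figure D2:**
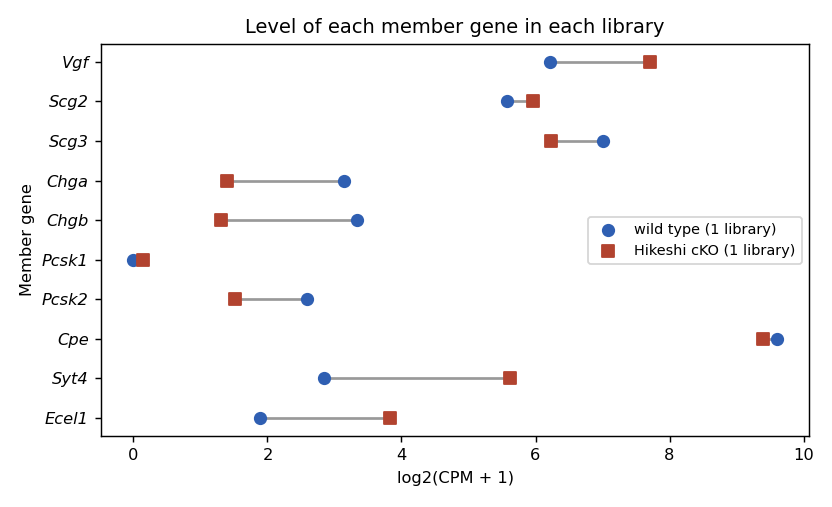
Level of each of the 10 members as log2(CPM + 1) on the x axis, with a circle for the wild-type-labelled and a square for the cKO-labelled library, 1 library each. Squares lie to the right for Vgf, Syt4 and Ecel1 and to the left for Scg3, Chga, Chgb and Pcsk2, while Cpe is highest in both libraries.

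Vgf encodes a secreted granin-like precursor whose peptides act in energy balance and synaptic plasticity. It had 3920 reads (cKO-labelled) and 1379 (wild-type-labelled), or 207 and 73.2 CPM. The ratio was 2.83 (95% counting interval 2.66 to 3.01). Its place in the order of all kept genes by CPM went from 3420th in the wild-type-labelled to 967th in the cKO-labelled library. The gene (Entrez 381677) lies on chromosome 5, 137025301 to 137033351, GRCm38.p6, as for every coordinate here.

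Secretogranin II, from Scg2, is a granin that is cut to the peptide secretoneurin. Its gene (Entrez 20254, chromosome 1, 79434366 to 79440026) had 1157 reads (cKO) and 883 (wild type), or 61.2 and 46.9 CPM, a ratio of 1.305 (1.195 to 1.43). This was the same direction as Vgf but a smaller size, inside the 1.5-fold band. Secretogranin III, which tethers other granins to the cholesterol-rich granule membrane, went the other way. Scg3 (Entrez 20255, chromosome 9, 75643366 to 75685959) had 1405 reads against 2408, or 74.3 against 128 CPM, and was 1.72-fold lower in the cKO-labelled library (1.61 to 1.84).

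The chromogranins, the classic granins of endocrine granules, were scarce in both libraries and lower in the cKO-labelled library. Chga (Entrez 12652, chromosome 12, 102554941 to 102565027) had 31 reads (cKO-labelled) and 147 (wild-type-labelled), or 1.64 and 7.80 CPM, 4.76-fold lower (3.21 to 7.26). Chgb (Entrez 12653, chromosome 2, 132781642 to 132795079) had 28 and 171 reads, or 1.48 and 9.08 CPM, 6.13-fold lower (4.095 to 9.50). The intervals of these 2 folds overlap. Like the other members kept, both exceeded 1 CPM in each library. Chgb and Scg2, which share the CRE at nearly the same distance from the start site in the sequences printed above, thus differed in opposite directions. The difference of Scg2 lay inside the 1.5-fold band.

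Vgf outweighed the other granins in the sum. The 5 genes together had 6541 reads (cKO-labelled) and 4988 (wild-type-labelled), a ratio of 1.306 (1.26 to 1.36), with Vgf supplying 59.9% and 27.7% of them. Without Vgf the remaining 4 had 2621 and 3609 reads and were 1.38-fold lower (1.31 to 1.45). On the length-corrected TPM scale the order of levels also differed. In the wild-type-labelled library it was Scg3 (109 TPM), Vgf (51.5), Scg2 (32.4), Chga (7.91) and Chgb (7.12), and in the cKO-labelled library it was Vgf (146 TPM), Scg3 (63.6), Scg2 (42.5), Chga (1.66) and Chgb (1.16). The first 3 places were separated by more than counting error in each library, while the reads of Chga and Chgb are too few to order the pair.

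Of the processing enzymes, Cpe was abundant and close to equal. Its reads numbered 12702 (cKO) and 14591 (wild type), or 672 and 775 CPM, which placed it 155th and 117th among the genes kept. The gene (Entrez 12876, chromosome 8, 64592542 to 64693109) was 1.15-fold lower in the cKO-labelled library (1.13 to 1.18), a gap that is precise in counting terms but small in size. Pcsk2, the convertase of the mature granule (Entrez 18549, chromosome 2, 143546133 to 143816284), had 35 and 94 reads, or 1.85 and 4.99 CPM, and was 2.70-fold lower (1.81 to 4.10). Pcsk1, the other granule convertase (Entrez 18548, chromosome 13, 75089420 to 75134861), had 2 reads (cKO-labelled) and 0 (wild-type-labelled). Both lie under the floor of 3 reads (0.159 CPM) set for a count of 0, so no fold is given. Pcsk1 was thus at the limit of detection and Pcsk2 low but counted in both libraries, far below Cpe in each. With 5 CPM added in place of 1, the log2 difference of Pcsk2 was -0.54 in place of -1.07, inside the 1.5-fold band. Long noncoding genes overlap Pcsk2 in RefSeq, are not listed in the table, and the strand setting of the counting is not given, so reads of these could be included in its count.

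Syt4 showed the largest difference of the 10. It encodes synaptotagmin IV, a vesicle protein of the family that couples calcium to membrane fusion, which itself binds calcium poorly and sits on immature granules and on vesicles carrying growth factors. The gene (Entrez 20983, chromosome 18, 31437808 to 31447415) had 906 reads (cKO-labelled) and 116 (wild-type-labelled), or 47.9 and 6.16 CPM. It was 7.78-fold higher (6.41 to 9.52), 36th by size of difference among the 12618 genes kept. Ecel1 (Entrez 13599, chromosome 1, 87142874 to 87157085) encodes a neuronal membrane protein of the neprilysin family of peptidases, known for its induction after nerve injury. It had 251 and 51 reads, or 13.3 and 2.71 CPM, and was 4.90-fold higher in the cKO-labelled library (3.62 to 6.76). Long noncoding genes that overlap Ecel1 in RefSeq are likewise not listed in the table.

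**Figure D3:**
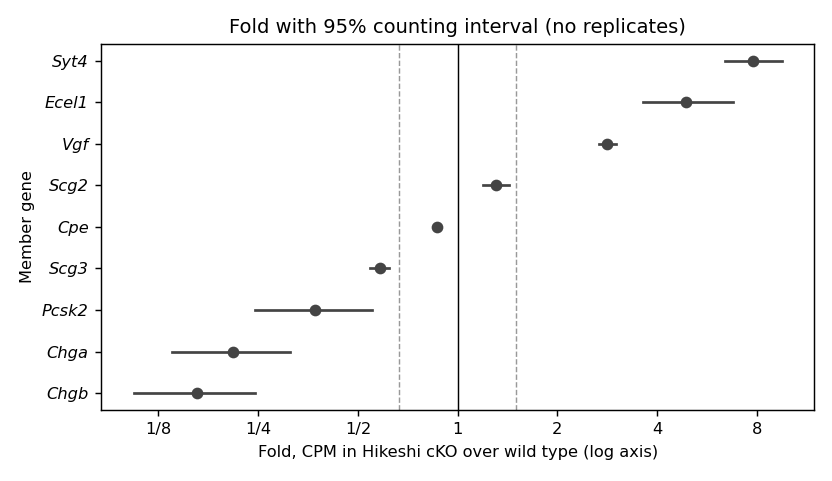
Ratio of CPM, cKO-labelled over wild-type-labelled library, for the 9 members kept, on a log axis. Bars are 95% exact counting intervals, not replicate error, and dashed lines mark 1.5-fold. Syt4 (7.78), Ecel1 (4.90) and Vgf (2.83) lie above the band, and the bars of all 9 genes lie clear of 1.

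The transcript length implied by the table was nearly the same in both libraries for every member kept. The reads needed per unit of TPM reflect the transcript length that the authors' estimation assigned to a gene in a library. The ratio of that quantity between libraries was 0.995 to 1.005 over the 9 members kept, where the central 95% of 12001 genes with at least 20 reads in both libraries ranged from 0.945 to 1.06. Base composition did not separate the higher from the lower members. Vgf and Ecel1, both higher, and Chga, lower, fell in the highest of 10 bins of transcript GC content, and Syt4, higher, fell in the lowest. After centring on the bins the log2 differences were 1.58 (Vgf), 2.65 (Syt4), 2.04 (Ecel1), -1.65 (Chga) and -1.95 (Chgb), against 1.49, 2.77, 1.94, -1.74 and -2.02 before.

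**Figure D4:**
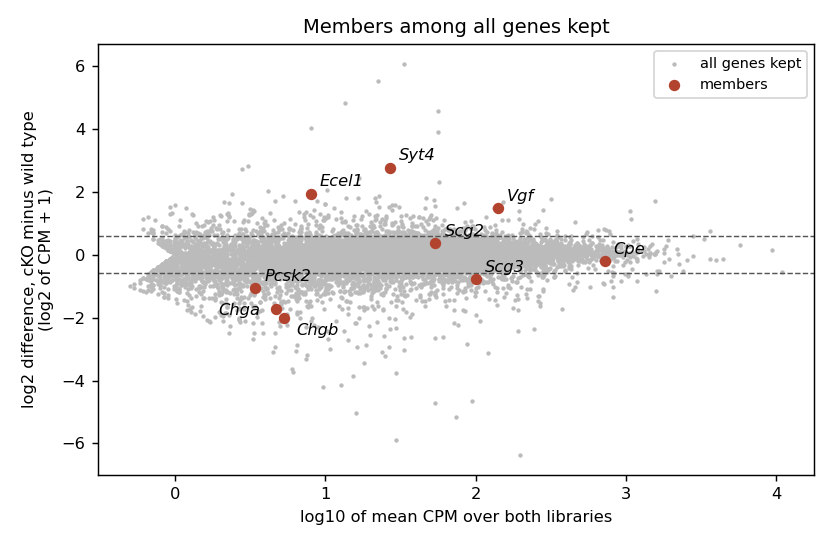
Log2 difference (cKO minus wild type, on log2 of CPM + 1) against log10 of the mean CPM for all 12618 genes kept (grey) and the 9 members kept (red). Dashed lines mark 1.5-fold. Syt4, Ecel1 and Vgf lie above the band at 2.77, 1.94 and 1.49, and Chga and Chgb lie below it at low mean levels.

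The other genes of the pathway were read from 8 lists drawn up by function. Beside every list count that follows stand the shares over all genes kept. These were 4.22% at least 1.5-fold higher, 10.2% lower and 85.6% within. Among other prohormone-processing genes 1 of 18 kept was at least 1.5-fold higher in the cKO-labelled library and 7 were lower (median log2 difference -0.09). The higher gene was Pam, whose enzyme amidates the ends of peptides, at 3182 reads against 1971, 1.61-fold (1.52 to 1.702). Scg5 and Pcsk1n encode the small proteins that bind and restrain the convertases PC2 and PC1/3, and were 1.67-fold (1.495 to 1.87) and 1.55-fold (1.40 to 1.71) lower, at 509 against 847 and 640 against 987 reads. The carboxypeptidase gene Cpm (19 against 69 reads) was 3.65-fold lower (2.17 to 6.42), the convertase gene Pcsk6 2.35-fold (1.95 to 2.84) and Cpxm1 1.94-fold (1.68 to 2.25). Furin, the convertase of the constitutive pathway, had 876 against 614 reads, a ratio of 1.42 (1.28 to 1.58) inside the band.

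Of 30 kept genes that build the granule, 27 lay within 1.5-fold, 0 higher and 3 lower (median -0.13), shares near the 85.6% within and 10.2% lower over all genes kept. Ptprn and Ptprn2 encode paired granule membrane proteins that are also autoantigens in diabetes. Ptprn had 1144 reads against 1052 (ratio 1.08, 0.995 to 1.18), whereas Ptprn2 had 188 against 386 and was 2.06-fold lower (1.73 to 2.47). The other lower genes were Ica1l at 2.04-fold (1.31 to 3.25, 31 against 63 reads) and Bsg at 1.65-fold (1.59 to 1.71, 4748 against 7791 reads).

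Of 29 docking, priming and fusion genes kept, 1 was at least 1.5-fold higher and 7 lower (median -0.19). The higher gene was Rab26, a small GTPase of secretory vesicles, at 1330 against 563 reads and 2.35-fold (2.13 to 2.601). Rph3a, which encodes the vesicle effector rabphilin, had 39 against 354 reads and was 9.11-fold lower (6.54 to 13.03). The active zone gene Rims1 was 4.92-fold lower (3.06 to 8.29) and the complexin gene Cplx1 2.36-fold (2.05 to 2.72). Cadps, the priming factor of dense core vesicles, had 1627 against 1088 reads, a ratio of 1.49 (1.38 to 1.61) just inside the band, while its relative Cadps2 had 1 against 12 and was below the filter.

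Syt4 stood among 15 other kept members of its family, 1 at least 1.5-fold higher and 5 lower (median -0.11). The higher one was Syt13, at 109 against 41 reads and 2.65-fold (1.83 to 3.89). Syt11, the closest relative of Syt4, had 9114 against 12026 reads and a ratio of 0.755 (0.735 to 0.776), the opposite direction to Syt4. Syt1, the calcium sensor of fast synaptic release, had 135 against 114 reads (ratio 1.18, 0.913 to 1.53), not distinguishable at this depth. Syt15 (2 against 32 reads), Syt5 (9 against 32) and Syt16 (222 against 464) were 16.1-fold (4.098 to 138), 3.57-fold (1.67 to 8.502) and 2.098-fold (1.78 to 2.47) lower. In TPM, Syt4 stood at 21.7 (cKO) and 2.78 (wild type), and Syt11 at 185 and 244.

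The list of peptide-degrading enzymes held relatives of Ecel1 in the neprilysin family together with enzymes of other families. Of its 13 kept genes, 2 passed 1.5-fold upward and 0 downward (median 0.10). Phex, of the same neprilysin family as Ecel1, had 51 against 14 reads and was 3.63-fold higher (1.98 to 7.10). The aminopeptidase gene Lnpep was 1.65-fold higher (1.40 to 1.94). The endothelin-converting enzyme genes Ece1 and Ece2 had 1036 against 1155 and 121 against 149 reads, inside the band, and the neprilysin gene Mme had 0 against 1.

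Many cargo and receptor genes of the pathway were not listed or fell below the filter. The precursor list summed to 1855 (cKO) and 2175 (wild type) CPM, most of it from Psap (900 and 1065 CPM) and Dbi (788 and 903 CPM). These sums therefore say little about the other precursors. Below the filter were 27 listed precursor genes, among them Npy (11 against 9 reads), Tac1 (13 against 12) and Cck (2 against 0). The receptor list summed to 1397 and 1545 CPM. Of 66 peptide precursor and growth factor genes looked for, 43 were listed and 16 kept, 2 of them at least 1.5-fold higher and 3 lower (median -0.22). The enkephalin precursor gene Penk was 2.41-fold higher (1.19 to 5.18) in the cKO-labelled library, at 29 against 12 reads. Cbln2 had 0 cKO reads against 86. With the floor of 3 reads in place of 0 it was 28.8-fold lower, and the lower counting limit of the fold was 22.9. Adm was 1.80-fold lower (1.64 to 1.98) at 678 against 1215 reads, and Adm2 2.46-fold (1.18 to 5.505) at 11 against 27. Of 23 kept receptors 2 were higher and 11 lower (median -0.49). Gpr37l1, an orphan receptor of astrocytes, was 6.59-fold lower (5.64 to 7.74), the nociceptin receptor gene Oprl1 5.64-fold (3.53 to 9.45) and the neurotensin receptor gene Ntsr2 3.75-fold (3.01 to 4.71). The natriuretic peptide receptor gene Npr1 and the cholecystokinin receptor gene Cckbr were 2.33-fold (1.86 to 2.94) and 2.81-fold (1.81 to 4.49) higher.

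Factors known to act on granin and neuroendocrine genes had 12 of 17 kept members within 1.5-fold, where 85.6% of all genes kept were. Among the rest, 1 was at least 1.5-fold higher and 4 lower (median 0.07). Rest had 610 reads against 608, a ratio of 0.999 (0.892 to 1.12). Insm1, which drives neuroendocrine differentiation, had 106 against 67 reads (1.58, 1.15 to 2.17, inside the band after 1 CPM is added). Crem, of the CREB family, was the higher gene at 1.55-fold (1.32 to 1.83). Scrt1 was 2.703-fold lower (2.02 to 3.65), the REST corepressor relative Rcor2 1.801-fold (1.61 to 2.02) and Myt1 1.65-fold (1.53 to 1.78).

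**Figure D5:**
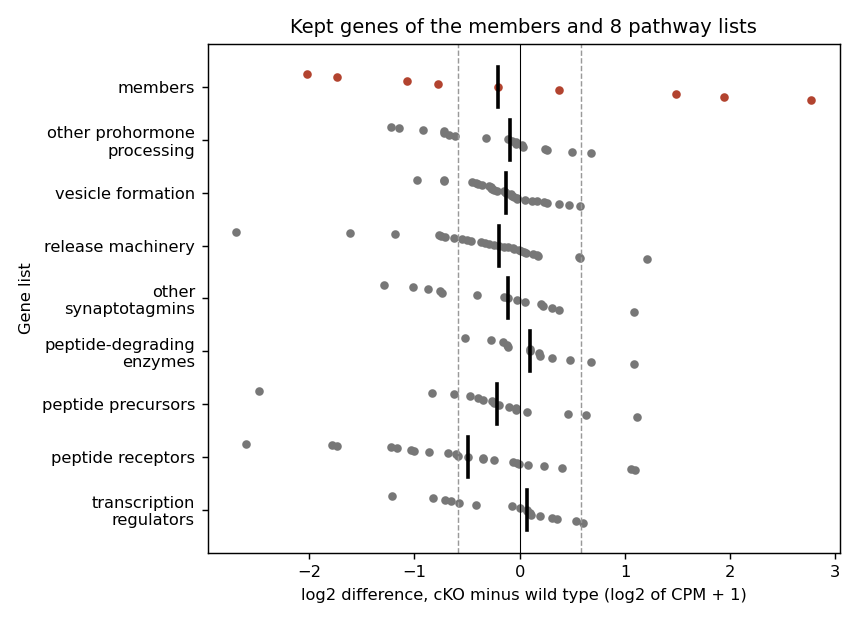
Log2 difference (cKO minus wild type, log2 of CPM + 1) of every kept gene in the member list (red) and 8 pathway lists (grey), with list medians as black bars and 1.5-fold as dashed lines. Members spread from -2.02 to 2.77, while most genes of the vesicle formation list lie inside the band.

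Markers of the cell types that such cultures can hold also differed between the libraries, and their part in the members' values was not tested. Past 1.5-fold lay 4.22% (higher) and 10.2% (lower) of all genes kept. Some genes stand in a pathway list and a marker list, so the counts of these lists are not separate observations. Ntsr2 is both a receptor and an astrocyte marker here, and Snap25 both a fusion gene and a neuronal marker. Of 15 kept oligodendrocyte lineage markers 12 lay at least 1.5-fold below wild type and 0 above it, with summed levels of 2525 (cKO) and 3979 CPM and Bmp4 at 0 reads in the cKO-labelled library. Of 15 astrocyte markers 13 were lower by that margin and 0 higher, with sums of 3420 and 6147 CPM. Neuronal markers summed to 1550 and 1594 CPM, with 3 of 19 kept higher, 4 lower and 12 within 1.5-fold. Dcx, of migrating neuroblasts, had 80 against 824 reads. The growth cone gene Gap43 had 6243 against 3162 and the neurofilament gene Nefm 470 against 188. Of 20 neuroendocrine markers 9 were not listed and 8 were kept, 0 higher and 2 lower, with sums of 384 and 590 CPM. Stem cell markers summed to 9959 and 6973 CPM, with 2 of 13 higher and 4 lower. In bulk RNA fewer cells of a type and less RNA per cell cannot be told apart.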

How the data were processed

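Total RNA of 2 libraries, 1 per genotype label, was sequenced after standard Illumina preparation, per the labels' protocols. The submitters' processing notes name GRCm38.p6 as the build. The aligner, counter, annotation and strand setting were not stated in these sources. The authors deposited estimated counts, TPM, FPKM and a signal called a normalized read count, per the file headers. Of the estimated counts 89.8% (cKO) and 90.0% (wild type) were exactly whole as deposited (at most 2 decimals, no tolerance), and all were rounded to whole reads here. CPM was computed from column totals, the filter was 1 CPM in at least 1 library, and differences are on log2(CPM + 1). No test was possible with 1 library per group. Intervals are exact conditional binomial (Clopper-Pearson, 95%, SciPy 1.17.1). They were run on counts simulated with counting error alone, which checks the calculation and not their fit to these libraries. Coverage was not looked at for genes of low level, Chga and Pcsk2 among them. They cover counting error only, and PCR copies among reads make them less independent than molecules. The floor for a count of 0 was 3 reads in a library. TMM factors came from edgeR 4.0.16 and size factors from DESeq2 1.42.0, for scaling alone. Coordinates and promoters came from RefSeq tables of GRCm38.p6, and GC content from GENCODE transcripts, available for 98.7% of genes kept. The members and lists were chosen with earlier results of these data known. Named were all members, 14 fixed genes and up to 3 genes per list and direction at least 1.5-fold apart, with marker lists given mainly as counts. Ece1, Ece2, Mme and the chromosomal neighbours in the closing section were named after their values were seen. Some genes named by this rule are not reported here. Protein features were not analysed here.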

Additional observations from a re-analysis of the deposited data

How the results depend on the processing

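With no replicates, depth limits Chga, Chgb, Pcsk2 and Pcsk1 most, and no value here has biological error. Of 78 recomputed member values none changed sign, and 74 stayed within counting error. The exceptions came with 5 CPM added in place of 1, at 2.25 (Syt4), 1.25 (Ecel1), -0.95 (Chga) and -1.12 (Chgb). With 5 CPM added Pcsk2, at -0.54 in place of -1.07, came inside the 1.5-fold band. That setting took the counts over all genes from 4.22% to 2.41% higher and from 10.2% to 5.34% lower. With a filter of 10 CPM, 6 members were left, the count of lower members was 1 in place of 4, and the median of members was 0.93 in place of -0.21, because Chga, Chgb and Pcsk2 drop out. With no filter Pcsk1 enters and the median was -0.030. The counts of 3 higher and 4 lower members were otherwise 3 and 4 under TMM, DESeq2 size factors, the deposited normalized counts, TPM, 0.25 CPM added, no filter and GC centring, and 3 and 3 with 5 CPM added or at 2-fold. Under TMM the release list had 3 higher genes in place of 1, and the vesicle formation list 1 in place of 0. At 2-fold the counts of most pathway lists were smaller, the receptors at 7 lower in place of 11. No paired analysis was possible because each group has 1 library.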

Other observations

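The genes beside the members on the chromosomes were read to see whether a member's difference was shared by its surroundings. Of the 40 nearest kept neighbours, 2 on each side of each member, 37 lay within 1.5-fold, with a median log2 difference of 0.13. In the cKO-labelled library 2 were above that band and 1 below it. Over all genes kept 85.6% lay within the band, 4.22% above and 10.2% below. Some neighbours lay far off, such as Celf4 at 5683288 bases from Syt4 and Cbr4 at 3089042 bases from Cpe. The counts thus say little about the immediate surroundings of a member. Ell2, on the chromosome of Pcsk1, was among the higher neighbours at 440 reads against 279. Ap1s1, which starts 1642 bases past the end of Vgf, had 3021 against 2615 reads and a log2 difference of 0.20. The lower neighbour was Hmgcll1, at 117 against 186 reads, 328739 bases from Scg3, which was itself lower.

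With 2 libraries the pattern of a gene is a single difference, so likeness between genes could be measured only as the gap between their log2 differences. Among 225 other kept genes of the lists the nearest to Vgf (1.49) were Tnc (1.72), Nefm (1.24) and Rab26 (1.21). The nearest to Cpe were Syn2, Arfip2 and Dbi, each at -0.20 or -0.21.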
